A study of Homo sapiens with 2 samples.

Results

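The long arm of chromosome 1, 1q, held 951 of the 17659 MYC peaks called in a human neuroblastoma line, 5.39% of the list and 51.0% of the 1864 peaks on chromosome 1. Members were the peaks of chromosome 1 whose summit lies above position 142500000 of GRCh37, and the 913 peaks of the chromosome below that position form the short arm used for comparison. The rule uses position alone and no measured value, although the members were chosen with earlier results of these data known. The first 1q summit was at 142618896 and the last at 249200906, and no peak was called in the 22.0 Mb between the arms, from 120612306 to 142618800.

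MYC is a transcription factor of the basic helix-loop-helix leucine zipper class. It pairs with MAX, binds E-box sequences, and is found mostly in open chromatin at active promoters and enhancers, so a map of its sites tends to follow gene-rich, active chromatin. Neuroblastoma is a childhood tumour of the sympathetic nervous system in which either MYCN or MYC can be the driving oncogene. Gain of 1q is a recurrent copy-number change in this tumour and in many others.

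The chromatin came from SH-EP/TET21/N (TET21) cells, a derivative of the SH-EP neuroblastoma line in which doxycycline represses a MYCN transgene, here made to express wild-type MYC. Before fixation in 1% formaldehyde for 10 min they had spent 7 days in doxycycline at 1 µg/mL. One library was immunoprecipitated with 2 µg of a rabbit polyclonal antibody to MYC prepared in the submitters' laboratory (N-262), and 1 input library came from the same kind of cells, so both groups share the line, the MYC construct and the doxycycline. TET21 is 1 clone, and whether introduced and endogenous MYC are both bound by the antibody is not stated in the labels. With 1 ChIP library there is no replicate error and no test between conditions. Poisson and Wilson 95% intervals below cover counting error within that library and treat peaks as independent, which neighbouring peaks are not. Peaks are named by position, since no GRCh37 gene annotation or sequence was used here.

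MYC peaks were somewhat denser on 1q than on the short arm, by a margin that was smaller without a single stretch of 4 Mb. The long arm held 8.91 peaks per Mb (Poisson 95% interval 8.36 to 9.50) over 106.7 Mb, and the short arm held 7.57 per Mb (7.09 to 8.08) over 120.6 Mb. The ratio was 1.18, with an exact interval of 1.07 to 1.29. Peaks of 1q rested on more fragments at a similar fold, as given below. How far this enters the count of called peaks was not tested. From 153 to 157 Mb, the densest 4 Mb of 1q, there were 152 peaks, or 38 per Mb (32.2 to 44.5), which is 16% of the arm's peaks. Without this stretch, 1q held 7.78 per Mb (7.25 to 8.34) and the ratio to the whole short arm was 1.03, and its interval of 0.93 to 1.13 spans 1. The densest 4 Mb of the short arm, from 25 to 29 Mb, held 75 peaks, or 18.8 per Mb (14.7 to 23.5). With both stretches left out the ratio was 1.08 (0.98 to 1.19).

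Counted by windows of 1 Mb, the median window held 6 peaks on 1q and 6 on the short arm, and the upper quartile was 12 on both. The lower quartile was 3 on 1q and 1 on the short arm, where 22 of 121 windows were empty against 10 of 108. The fullest 1q window, 156 to 157 Mb, held 47 peaks (95% Poisson interval 34.5 to 62.5), and only 6 windows of the genome held more. Its neighbour from 155 to 156 Mb held 42, that from 154 to 155 Mb held 34 and that from 153 to 154 Mb held 29. Away from this stretch the fullest window was 201 to 202 Mb, also with 34 peaks. The fullest window of the short arm, 16 to 17 Mb, held 30 (20.2 to 42.8). The intervals of the fullest windows of the arms overlap.

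**Figure D1:**
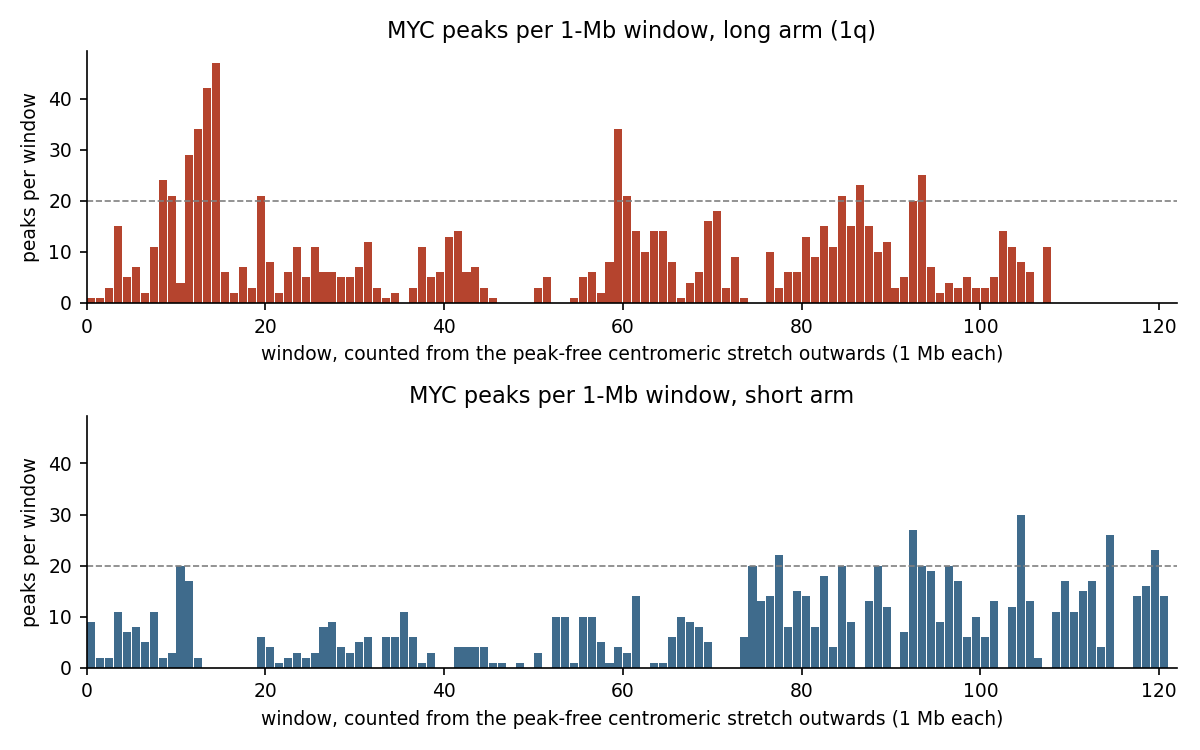
Bars give the number of MYC peaks in each 1-Mb window of 1q (upper panel) and of the short arm (lower panel), with windows counted outwards from the peak-free centromeric stretch and a dashed line at 20 peaks. On 1q a single group of adjacent tall bars reaches 47 peaks, while no window of the short arm exceeds 30.

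Other well-filled windows of 1q lay on both sides of this stretch. Those from 150 to 151 Mb and 151 to 152 Mb held 24 and 21 peaks, just before a window, 152 to 153 Mb, with 4. Further out, the window from 161 to 162 Mb held 21, and that from 202 to 203 Mb also held 21, beside the 34 of its neighbour. Towards the tip, 226 to 227 Mb held 21, 228 to 229 Mb held 23, 234 to 235 Mb held 20 and 235 to 236 Mb held 25. In all, 13 of the 108 windows touched by 1q held 20 or more peaks, and together they held 362 peaks, 38.1% of the arm. On the short arm 11 of 121 windows reached 20, with 248 peaks or 27.2%.

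Peak-free stretches broke up the rest of the arm. The longest ran from 187660929 to 192500265, a length of 4.84 Mb, and the next from 193091434 to 196150366 (3.06 Mb) and from 215740842 to 218458545 (2.72 Mb). Stretches of over 1 Mb numbered 14 on 1q and summed to 25.1 Mb. The short arm had 20 of them, summing to 38.2 Mb, the longest of 6.99 Mb. Near the tip of 1q no peak was called from 247495862 to 249115446, after which 11 peaks fell in the last window. One stretch of 1.298 Mb, from 152140690 to 153438299, reached into the densest 4 Mb from its centromeric side.

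Set against genes, 1q also held more peaks. The RefSeq table (GRCh38.p14) lists 973 protein-coding genes beyond the longest gene-free stretch of chromosome 1 and 1089 before it, counts taken within that build and not joined to any peak. This gives 97.7 peaks per 100 coding genes on 1q (91.6 to 104.2) and 83.8 on the short arm (78.5 to 89.5). The peaks are those of the density per Mb, so these values are not separate support for it and share its limits. They were not computed without the densest 4 Mb of 1q. Gene families of 1q in that table include 58 olfactory receptor genes, the odour detectors of the nose, and 41 genes of epidermal differentiation such as FLG and IVL, which build the outer skin layer. The table also places there 34 immune receptor genes of the CD1, FCRL, FCGR and SLAMF kind and 15 genes of the calcium-binding S100 family. Together these 4 groups hold 148 genes of 1q and 3 of the short arm. Other groups drawn up place 36 genes of 1q gain and cell cycle and 21 of ribosome biogenesis and Pol I/III on 1q. Of those groups, 2 and 1 genes lie on the short arm. Which of these genes carry a peak was not analysed here.

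The strongest 1q site was at chr1:156024147-156024797, inside the fullest window. There 89 ChIP fragments covered the summit (95% Poisson interval 71.5 to 109.5) where the local background was 1.69 fragments. The fold was 33.5 and the −log10 p 118.5. The fold is the authors' deposited enrichment over the background that their peak caller estimated. The pileup, the count of ChIP fragments that cover a summit, and the background were recovered from fold and −log10 p. On 1q the background was at most 5.94 fragments, so it rests on few fragments. No interval was computed for it at single peaks. This peak ranked 8 in the whole list by −log10 p and 20 by fold. It was the last of 3 peaks within 1733 bp, and the other two, at 156023065 to 156023311 and 156023501 to 156023748, had folds of only 6.90 and 4.96 on 15 and 10 fragments. The intervals of those pileups, 8.4 to 24.7 and 4.8 to 18.4, lie far below that of the strong peak, so the cluster was 1 strong site with weak neighbours on one side.

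The second strongest site stood alone. At chr1:222638824-222639321, the pileup was 75 fragments (59.0 to 94.0) where the background was 1.32. The fold was 32.8, and the nearest other summit was 81.2 kb away. Its pileup interval overlaps that of the strongest site. Next by fold, chr1:229761678-229762204 had a fold of 28.1 on 61 fragments, with a weaker peak 614 bp away. The sites at chr1:166808361-166808838 and chr1:155579402-155580049 followed with folds of 25.7 and 25 on 54 and 57 fragments. The fold of chr1:155243245-155243538 was 24.7 on 56 fragments in a peak of only 294 bp. For these 4 sites the pileup intervals overlap one another, so their order is not settled at this depth.

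Folds of at least 20 were found at 16 peaks on 1q, 1.68% (Wilson 95% interval 1.04 to 2.72), against 1.43% of all peaks in the list, so the arm as a whole was near the background share. The short arm had 10 (1.10%, 0.60 to 2.00). Within 1q these peaks were bunched: 9 of the 16 lay in the 4 Mb from 153 to 157 Mb, which is 5.92% of the peaks there (3.15 to 10.9), against 7 of 799 peaks or 0.876% (0.425 to 1.80) in the rest of the arm. Besides the 3 already named, they were at chr1:154192810-154193991 (fold 20.1), chr1:154531204-154531706 (21.2), chr1:156083862-156084672 (22.4), chr1:156571082-156571385 (23.7), chr1:156710657-156711149 (22.8) and chr1:156721391-156721893 (23.2). The last of these also closed a row of 3 peaks, of which the others had folds of 5.40 and 7.76. The stretch was picked for its number of peaks and not for their fold, although both come from the same calls. Its median fold was 6.59, little above the 6.31 of the rest of 1q. Folds of at least 10 were found at 32 of its 152 peaks, or 21.1% (15.3 to 28.2). The rest of 1q had 14.6% (12.4 to 17.3), and the intervals overlap. The upper quartiles of fold were 9.22 in the stretch and 8.46 in the rest of 1q. In the densest 4 Mb of the short arm, 0 of 75 peaks reached a fold of 20 and 9 reached 10.

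**Figure D2:**
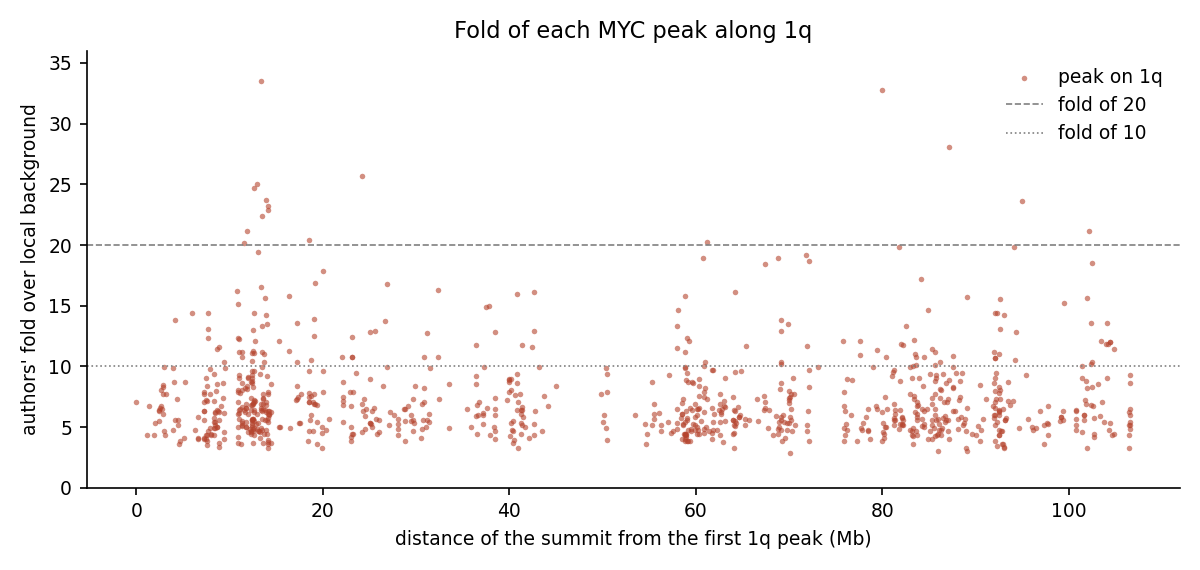
Each point is 1 of the 951 peaks of 1q, placed by the distance of its summit from the first 1q peak in Mb and by the authors' fold over local background. Most points lie below 10, and 9 of the 16 points at or above the dashed line at 20 fall in 1 narrow stretch near the left.

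The other strong sites were spread along the arm. In the distal part, chr1:237634303-237634584 had a fold of 23.6 on 47 fragments (34.5 to 62.5), 346.0 kb from any other summit and in a window with 2 peaks in all. At chr1:244816004-244816768 the fold was 21.2 on 44 fragments, with the nearest summit 182.3 kb off. The sites at chr1:161146989-161147534 and chr1:203830532-203831093 had folds of 20.4 and 20.3, with the nearest summits 11.2 and 28.4 kb away. The 4 peaks just short of a fold of 20, at chr1:224370656-224371051, chr1:236767644-236768242, chr1:155715219-155715592 and chr1:214454759-214455094, had folds of 19.8, 19.8, 19.4 and 19.2. At these depths they cannot be told from those just above.

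Ranking by −log10 p in place of fold brought in 2 sites whose background was high. At chr1:245026165-245026849, the pileup was 84 fragments (67.0 to 104.0) but the background was 5.28, so that the fold was 13.5 although only 15 peaks of the whole list had a higher pileup. At chr1:210001179-210001653, 66 fragments with a background of 2.64 gave a fold of 18.4. These 2 sites ranked 87 and 100 by −log10 p but 1111 and 378 by fold.

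Folds of at least 10 were found at 149 peaks of 1q, or 15.7% (13.5 to 18.1), against 15.4% of the whole list and 16.4% (14.2 to 18.97) on the short arm. The arm did not stand apart by this measure. Within it, the 10-Mb block from 240 to 250 Mb had the highest share, 22.7% of 66 peaks (14.3 to 34.2), and the block from 150 to 160 Mb had 19.9% of 216 (15.1 to 25.7). The block from 190 to 200 Mb, which holds part of the longest peak-free stretch and the whole of the next, had 0 of 22 peaks at this fold, and the interval reaches 14.9%. The proximal block below 150 Mb had 2 of 45, or 4.44% (1.23 to 14.8). Strong peaks were also wider. The median width was 209 bp below a fold of 10, 357 bp from 10 to 20 and 515 bp at 20 or more. The widest 1q peak, chr1:173836381-173837886, spanned 1506 bp with a fold of 12.8, and the next, chr1:244997831-244999244, spanned 1414 bp with a fold of 10.2.

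Within 1 kb, sites on 1q were crowded to about the extent seen in the whole list. Another summit lay within 1 kb of 314 peaks, 33.0% (30.1 to 36.1), against 29.8% of the whole list and 30.4% (27.6 to 33.5) on the short arm, so the share of 1q was close to the background. At wider range the arms differed more: the median distance to the nearest summit was 8668 bp on 1q and 15097 bp on the short arm. It was 10257 bp in the whole list. Within 5 kb the shares were 44.2% (41.0 to 47.3) on 1q and 40.2% (37.1 to 43.4) on the short arm, against 42.4% of the whole list. Joining peaks with gaps of at most 1 kb left 765 regions on 1q: 614 of 1 peak, 120 of 2 and 31 of 3 or more. The 31 are 4.05% (2.87 to 5.69) of the arm's regions, and 3.18% of the regions of the whole list were of this size. They took in 97 peaks (10.2% of the arm), among them 2 of the 16 with a fold of at least 20. The short arm had 749 regions, of which 27 held 3 or more. The best fold of the 31 crowded regions ranged from 5.51 to 33.5 with a median of 9.60, and 15 of them reached 10. That median takes the best of several folds in each region and is not comparable with the 6.32 of regions of 1 peak.

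The most crowded region was chr1:154972260-154974741, where 5 peaks lay within 2482 bp. From the first to the last their folds were 9.60, 5.62, 5.17, 8.79 and 5.65, on 23, 12, 11, 31 and 27 fragments. The last peak had almost the pileup of the fourth but a background of 3.96 fragments, which lowered its fold. No member reached a fold of 10. At chr1:150206989-150209007 there were 4 peaks, the outer pair with folds of 7.19 and 8.37 and the inner pair with 3.88 and 3.49. The inner 2 rested on 8 and 14 fragments and were among the weakest calls of the arm. The third region of this size, chr1:183439336-183442191, held 4 peaks in 2856 bp with folds of 9.41, 16, 6.38 and 8.62. Its second peak, with 36 fragments (25.2 to 49.8), stood above the 18 or 19 of each of the other three, although its interval overlaps theirs.

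Of the other crowded regions, 28 held 3 peaks each. In the stretch from 153 to 157 Mb there were 7 crowded regions in all, counting that of 5 peaks, and 47.4% of the peaks there (39.6 to 55.3) had another summit within 1 kb, against 30.3% (27.2 to 33.6) in the rest of 1q. The stretch was picked for its density, which by itself brings summits closer together. In the densest 4 Mb of the short arm, with fewer peaks per Mb, the share was 29.3% (20.2 to 40.4), against 30.5% (27.5 to 33.8) in the rest of that arm. Near the tip of the arm, 3 peaks lay within 696 bp at chr1:249200286-249200981, the tightest such group of the arm, with a best fold of 8.62. A pair of such groups lay close together at chr1:234743888-234744848 and chr1:234748408-234749524, with best folds of 10.7 and 7.97. Among the stronger groups were chr1:211432248-211434120 with a best fold of 19, chr1:185285325-185286894 with 16.1 and chr1:244613953-244615691 with 15.7.

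The clearest difference between the arms was in the local background. Its geometric mean over peaks was 1.59 fragments on 1q and 1.09 on the short arm, a ratio of 1.47, and it was 1.11 over the peaks of the other chromosomes and contigs. The median was 1.41 on 1q, with quartiles of 1.31 and 1.98, and 1.03 on the short arm, with quartiles of 0.768 and 1.32. The lowest common background of the list, 0.683 fragments, was found under 2 of the 951 peaks of 1q, or 0.21% (0.058 to 0.764), and under 94 of the 913 of the short arm, or 10.3% (8.49 to 12.4). Among peaks over 20 kb from any other, the geometric means were 1.56 (375 peaks) and 1.10 (407 peaks). The higher level was also present where no other peak was near. No copy-number measurement of these cells was analysed here, so the number of copies of 1q and the fraction of input fragments per copy cannot be told apart.

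The difference held along the whole length of the arm. In the 11 blocks of 10 Mb the geometric mean background ranged from 1.51 to 1.77, and in the 13 blocks of the short arm from 0.88 to 1.18, so the blocks of the arms did not overlap. The last full block of the short arm, 110 to 120 Mb, had 1.11, and the first of 1q, 140 to 150 Mb, had 1.77. The 10th percentile, a view of the lowest backgrounds in each block, ran from 0.999 to 1.12 on 1q and from 0.683 to 0.746 on the short arm. The 2 floor-level peaks of 1q were both in its proximal block, which also held 2 of its 3 highest backgrounds, 5.94 fragments, at chr1:145092499-145092790 and chr1:149223491-149223659. The third was chr1:212740490-212740638, the peak with the lowest fold of the arm (2.88 on 19 fragments).

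**Figure D3:**
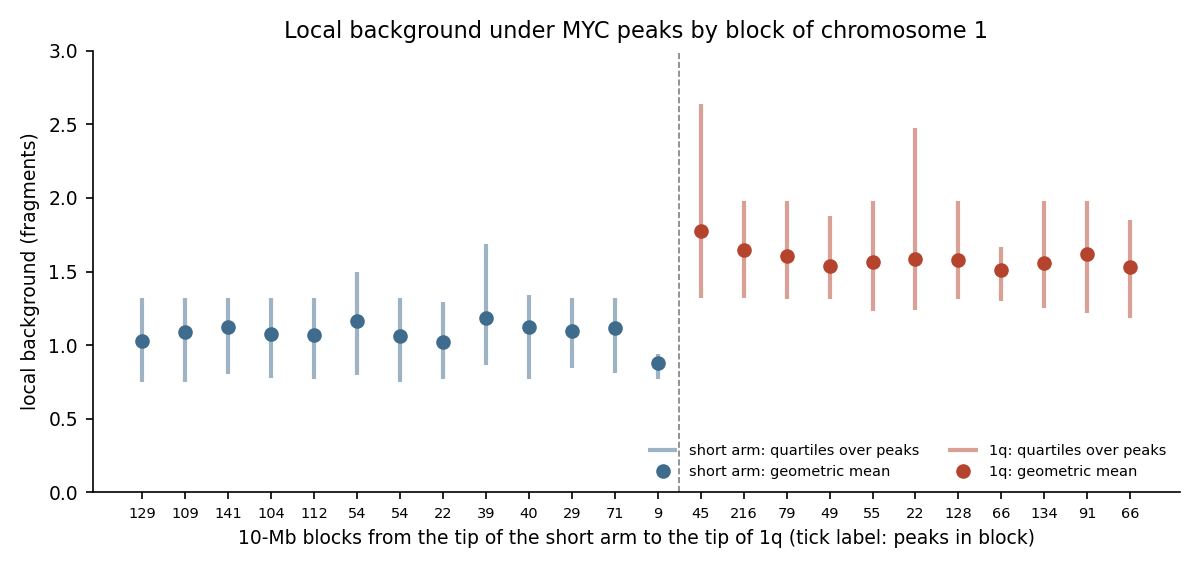
Points give the geometric mean of the local background, in fragments, over the peaks of each 10-Mb block of chromosome 1, bars run from the lower to the upper quartile over peaks, and the dashed line marks the centromeric stretch. All 11 blocks of 1q lie between 1.51 and 1.77, above the 0.88 to 1.18 of the 13 short-arm blocks.

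Among called peaks, ChIP pileups were higher on 1q too, while folds were not. The median pileup was 16 fragments on 1q (quartiles 12 and 22) and 13 on the short arm (quartiles 10 and 17). Pileups of at least 40 fragments were found at 43 peaks of 1q, 4.52% (3.37 to 6.04), against 2.22% of the whole list and 2.41% (1.60 to 3.62) on the short arm. The median fold was 6.33 on 1q, with quartiles of 5.04 and 8.62, and 6.47 on the short arm, with quartiles of 5.17 and 8.47. The geometric mean was 1.24 times that of the short arm for pileup and 0.985 times for fold. At the low end, the weakest pileup called was 7 fragments on 1q and 5 on the short arm, and pileups under 10 made up 5.89% of 1q peaks (4.56 to 7.57) but 22.5% (19.9 to 25.3) of short-arm peaks and 19.2% of the whole list. The weakest call at the lowest background had 5 fragments on the short arm, and the weakest at 1.32 fragments, the most common level on 1q, had 7 on each arm. Only called peaks are listed, and a call needs more fragments where the background is higher. The low end of pileup is thus bounded by the calling cut, and the part of this in the medians was not tested.

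**Figure D4:**
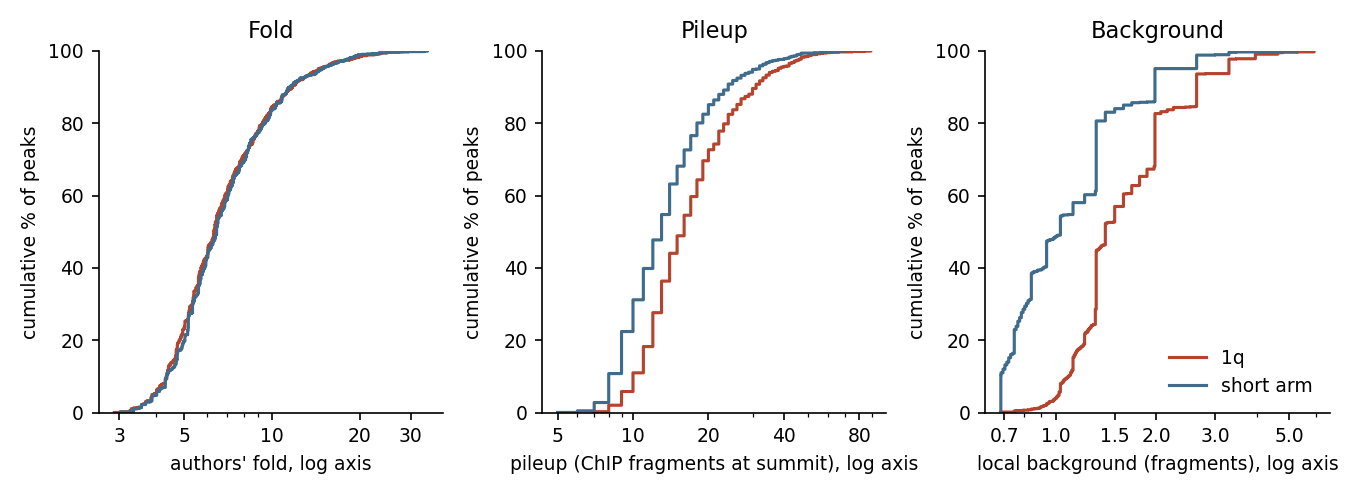
Cumulative percentage of peaks against the authors' fold, the pileup in ChIP fragments and the local background in fragments, on log axes, for the 951 peaks of 1q and the 913 of the short arm. The fold curves run together, with medians of 6.33 and 6.47, while the curves of pileup and background for 1q lie to the right.

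The arms were also compared at equal recovered background. The most common level on 1q, 1.32 fragments, was shared by 151 peaks of 1q and 177 of the short arm. Their median pileup was 14 (quartiles 11 and 20) on 1q and 13 (10 and 17) on the short arm, and their median fold 6.47 and 6.03. Of these, 17.9% (12.6 to 24.8) and 11.9% (7.89 to 17.5) reached a fold of 10, and the intervals overlap. The 3121 peaks of the other chromosomes at this level had a median fold of 6.03 and a share of 13.3% (12.2 to 14.6). Split into 7 bands of background, the median fold of 1q was the higher in 6, but the lowest band held only 7 peaks of 1q and the highest only 10 of the short arm. From 1.5 to 2 fragments it was 6.11 against 5.37 (244 and 101 peaks). From 1 to 1.2 fragments it was the lower, 6.59 against 7.39 (138 and 86 peaks). The same background holds a different place within each arm, since the level of 1.32 fragments lies near the lower quartile of 1q and at the upper quartile of the short arm. Each background is also an estimate from few fragments. Equal values, in the match and in the bands, need not mean that the true backgrounds were equal.

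How prominent 1q appears among the strongest sites of the genome depended on the measure. It held 27 of the 502 peaks with the highest fold, 5.38% (3.72 to 7.71), close to its 5.39% share of all peaks. By −log10 p it held 40 of the top 504, 7.94% (5.88 to 10.6), and by pileup 57 of the top 554, 10.3% (8.03 to 13.1). The short arm, with 5.17% of all peaks, held 5.58%, 6.15% and 4.87% of the same lists. The numbers exceed 500 because of ties. The rank by pileup follows the fragment number alone, while that by −log10 p depends on both fragment number and background. The part of the arms' differences in these, given above, in the shares was not tested.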

How the data were processed

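MYC ChIP-seq of 1 ChIP library with 1 input library was analysed from the authors' peak list, whose values are used as deposited. The tools MACS2 2.1.0, STAR 2.5.2a, Picard 2.7.1 and SAMtools 1.3 and the build GRCh37 come from the submitters' processing notes, which give no role or order. The filter applied to the list is not given in the sources used here. The file has the narrowPeak layout. A score that the authors deposited for each peak was not analysed. The authors' deposited fold is a ratio over local background. As deposited, −log10 p and −log10 q are the caller's own, and the weakest −log10 q is 1.307. The deposited distance of the summit from the peak start set the arm. Coordinates are 1-based.

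Pileup and background were recovered from MACS2's definitions, in which fold is (pileup + 1) / (background + 1) and p is the Poisson tail above the pileup, by trying whole pileups from 3 to 699. A whole pileup gave the deposited −log10 p within 0.001 for 100% of peaks. The procedure was tested on simulated data whose range of pileup and background took in the peaks of both arms. That range did not reach the highest values of the whole list, a pileup of 210 fragments and a background of 83.8. The total number of reads is unknown, so depth is seen only as fragments per summit. Arm lengths run from position 142500000 to the last peak (1q) and from the chromosome's start to the last short-arm peak. Distances between peaks are between summits. Printed intervals are exact Poisson, exact conditional binomial for ratios of rates, or Wilson, all at 95%. Alternatives for medians were judged by a binomial interval on ranks, and those for the background ratio by a normal interval on the log scale. Both treat the peaks of 1 library as independent, which neighbouring peaks are not. No test between groups was possible with 1 library. The members and lists were chosen with earlier results of these data known. Of the planned results, shares of peaks at start sites, E-box shares and gene lists were not computed, since no annotation or sequence of GRCh37 was used here. The rule for named sites took the 20 peaks of 1q with the highest fold, the 10 with the highest −log10 p, joined regions of 4 or more peaks, the 5 fullest windows and the longest peak-free stretch, by position. Further windows, stretches, peaks and regions, the 4-Mb stretch among them, were chosen after their values were seen. Python 3.11.15, SciPy 1.17.1 and pandas 2.3.3 were used.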

Additional observations from a re-analysis of the deposited data

How the results depend on the processing

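Of 22 alternatives for 7 results, 9 left the value within its 95% interval and 13 moved it, and none turned a ratio to the other side of 1. Keeping peaks at or above the list's median −log10 p left 524 on 1q and lowered the density from 8.91 to 4.91 per Mb and the share with a neighbour within 1 kb from 33.0% to 19.8%, since fewer peaks remain by construction. It raised the median fold from 6.33 to 8.25 and the density ratio of 1q to the short arm from 1.18 to 1.296 (1.14 to 1.47). The cut kept 524 of the 951 peaks of 1q and 457 of the 913 of the short arm. At equal fold, −log10 p rises with the number of fragments, which was higher on 1q. The part of this in the ratio was not tested. Joined regions gave 7.17 per Mb on 1q. Leaving out the densest 4 Mb gave 7.78 per Mb and, against the whole short arm, a ratio of 1.03 (0.93 to 1.13). Without the densest 4 Mb of each arm the ratio was 1.08 (0.98 to 1.19), and both intervals span 1. One peak per joined region gave a median fold of 6.47. Neighbours within 500 bp and 5 kb made up 16.8% and 44.2%. The background ratio of 1.47 was 1.41 over peaks more than 20 kb apart and 1.59 at the 10th percentile; the cause was not tested. Without 4 gene lists the ratio of peaks per 100 coding genes was 1.37 in place of 1.17, a rise fixed by construction, since the lists hold 148 genes of 1q and 3 of the short arm. The alternatives on start sites, E-boxes and gene lists, 7 in all, were not run. Alternatives for the ratios, and those leaving out stretches, were chosen after seeing the data. No paired analysis was possible because each group has 1 library, and for the same reason no replicate could be left out. No 1q peak had fewer than 7 fragments and no short-arm peak fewer than 5, so sites weaker than these are not seen in the list.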
